A study of Rattus norvegicus with 36 samples.

Results

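The genes described here carry out or control fatty acid oxidation and ketone body metabolism. They were chosen by name as a list of 32 genes, from the carnitine shuttle through mitochondrial and peroxisomal β-oxidation to ketone bodies, acyl-CoA thioesterases and regulators. Of these, 30 had a row in the count table of 24773 genes, and all 30 passed the filter on low counts in both tissues. *Echs1* and *Acaa1a* were not analysed here. Transcripts were measured by directional mRNA-seq of whole distal ileum and proximal colon of 18 male UCD-T2DM rats, which gave 36 libraries. UCD-T2DM rats are a polygenic model that becomes diabetic without drug or special diet, and no non-diabetic strain of like background was available for comparison. The 6 ND rats were non-diabetic UCD-T2DM rats aged 70 days, the 6 D1M rats were 168 to 172 days old with diabetes for 22 to 23 days, and the 6 D3M rats were 172 to 173 days old with untreated diabetes for 88 to 116 days. All rats were fasted before tissue collection. Duration of diabetes and age both differ between the diabetic and the ND rats and cannot be told apart in any comparison with ND. D3M and D1M rats were close in age, but diabetes began at 57 to 85 days of age in D3M and at 146 to 150 days in D1M rats.

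Long-chain fatty acids enter mitochondria as carnitine esters, and each turn of β-oxidation then passes through a dehydrogenase, a hydratase, a second dehydrogenase and a thiolase, with extra enzymes for the double bonds of unsaturated chains. Peroxisomes shorten very long and branched chains, and acetyl-CoA can be turned into ketone bodies or made again from them. Enterocytes of the small intestine absorb and re-esterify dietary fat, and colonocytes oxidize short-chain fatty acids made by bacteria. PPARα is the nuclear receptor known for inducing many of these genes in fasting, and binds a direct repeat of the half-site AGGTCA.

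Promoter windows are shown for *Eci1*, *Hsd17b4* and *Acot12*, the transcripts that changed in both ileal comparisons with D3M rats and whose window holds that half-site. Sequences run 5′ to 3′ from 250 bases before to 50 bases after the RefSeq gene start (300 bases, build GRCr8), with AGGTCA or its complement TGACCT in capitals. The windows are chr10:13961000-13961299 for *Eci1*, chr18:45515177-45515476 for *Hsd17b4* and chr2:24721709-24722008 for *Acot12*, all on the plus strand.
Eci1: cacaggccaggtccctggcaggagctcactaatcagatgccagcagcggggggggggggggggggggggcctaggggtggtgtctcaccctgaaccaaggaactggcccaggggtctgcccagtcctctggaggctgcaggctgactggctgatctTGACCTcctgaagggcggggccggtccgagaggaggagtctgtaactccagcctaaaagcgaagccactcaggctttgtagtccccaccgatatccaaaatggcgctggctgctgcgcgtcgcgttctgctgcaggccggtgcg
Hsd17b4: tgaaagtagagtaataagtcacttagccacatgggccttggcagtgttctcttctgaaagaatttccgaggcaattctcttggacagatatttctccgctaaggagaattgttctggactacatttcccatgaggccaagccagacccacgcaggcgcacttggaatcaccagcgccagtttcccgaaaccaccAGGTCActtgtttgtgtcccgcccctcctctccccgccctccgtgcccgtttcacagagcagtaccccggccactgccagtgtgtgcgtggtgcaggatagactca
Acot12: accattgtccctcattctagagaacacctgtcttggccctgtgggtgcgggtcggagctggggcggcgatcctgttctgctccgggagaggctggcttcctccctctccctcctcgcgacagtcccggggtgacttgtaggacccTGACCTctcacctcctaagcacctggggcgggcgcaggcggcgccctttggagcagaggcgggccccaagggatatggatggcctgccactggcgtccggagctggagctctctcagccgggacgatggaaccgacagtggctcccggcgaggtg
RefSeq had a window for 27 of the 30 genes, all but *Acaa2*, *Acadl* and *Decr1*. The half-site was present on either strand in 6 of the 27 (*Acadvl*, *Acot12*, *Eci1*, *Eci2*, *Hadhb* and *Hsd17b4*) and in 16.2% of all 33469 windows. The direct repeat of AGGTCA with 1 base of any kind between the copies, which contains the half-site, was in 0 of the 27 and in 0.0538% of all windows. A match is a run of letters and not a bound site. Of the 6 genes with the half-site, *Eci1* and *Hsd17b4* fell and *Acot12* rose in ileum of D3M rats, while *Acadvl*, *Eci2* and *Hadhb* did not pass the test. Of the genes whose window lacks it, *Acat1*, *Cpt1a* and *Etfdh* fell in D3M relative to ND rats, where 12.5% of all genes passed. A link between the half-site and the changes was not tested.

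Library totals ranged from 12279059 to 21510043 counts in ileum and from 10024041 to 18299050 counts in colon. Libraries carried their region's markers, but 2 libraries of ND rats and, to a smaller extent, 1 of a D3M rat also held markers of the other region. The colon library of rat K4028 summed to 13800 CPM (counts scaled per library total) over 10 ileal markers, while the remaining colon libraries had 18.11 to 49.84 CPM. The ileum library of rat K4040 summed to 4840 CPM over 8 proximal colon markers, while the remaining ileum libraries had 586.4 to 2655 CPM. The colon marker *Car1* was 3616 CPM in that library and 1345 CPM in the ileum library of D3M rat P762, and at most 130.4 CPM in the others. Without P762 8 members were called between D3M and ND rats, with *Cpt1a* lost and *Bdh1* gained, and the log2 fold change of *Eci1* was −0.77. *Defa5* was at 0 in every group of both tissues, as was *Hoxb13* in ileum. Levels below are TMM-normalized CPM, which compare libraries for 1 gene and not genes with each other.

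In ileum, 7 of the 30 transcripts fell and 1 rose in D3M rats relative to ND rats at FDR < 0.05 (edgeR quasi-likelihood test, with Benjamini-Hochberg adjustment over 13026 genes). *Decr1*, *Eci1*, *Acat1*, *Hsd17b4*, *Cpt1a*, *Etfdh* and *Acaa2* were lower, and *Acot12* was higher. Of all genes tested 12.5% passed, 4.22% lower and 8.31% higher. Calls among the members were thus mostly lower, and those over all genes mostly higher. The list was chosen with earlier results of these data known, so this contrast describes the list and is not a test. A wider list of the pathway, described below, had 10 higher and 6 lower calls among 73 tested genes. Without adjustment, 13 of the 30 had p below 0.05 (10 lower and 3 higher), against 29.7% of all genes. The median log2 fold change of the 30 was −0.07, and that of all genes was −0.08. All D3M libraries lay below all ND libraries for 6 members and above them for 1, against 1.92% and 4.48% of all genes. In these bulk libraries, fewer cells of a type and less RNA per cell cannot be told apart.

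**Figure D1:**
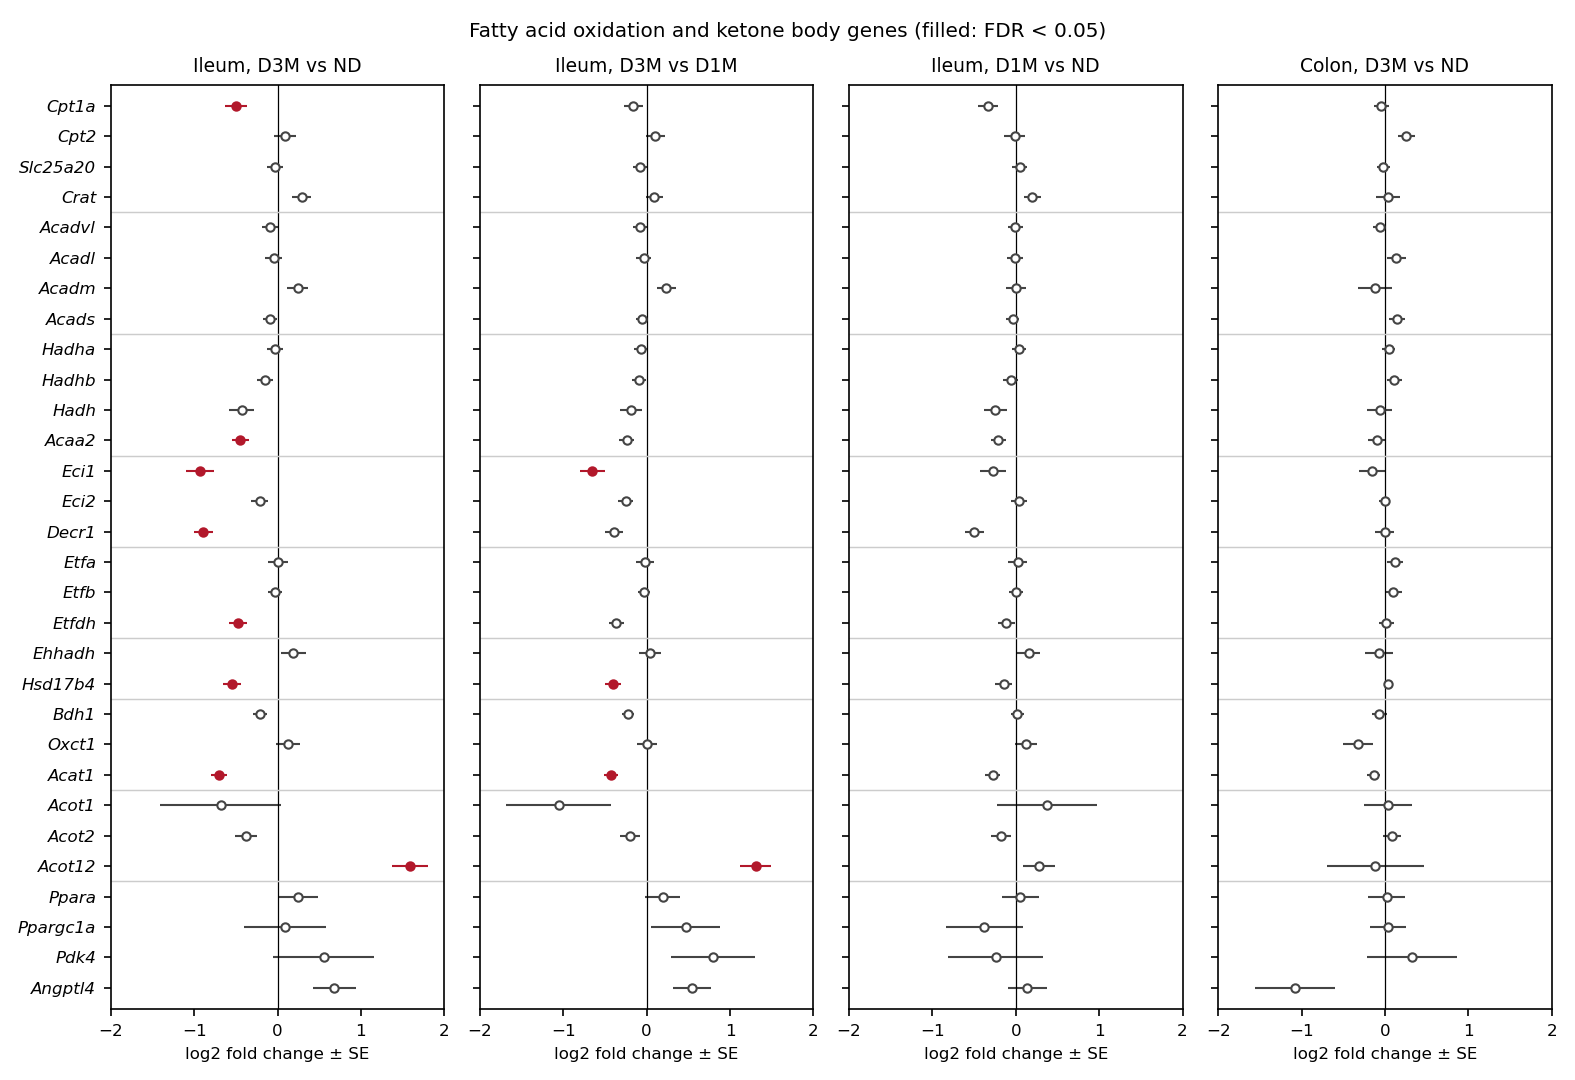
Log2 fold changes with SE of the 30 genes in ileum (D3M relative to ND, D3M relative to D1M and D1M relative to ND) and in colon (D3M vs ND), with 6 rats per group. Grey lines part the roles in the order of the text, and filled red points passed FDR < 0.05: 8 for ileum D3M vs ND, 4 for ileum D3M vs D1M and 0 in the other 2 panels.

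Of the isomerases and the reductase that prepare unsaturated chains for β-oxidation, 2 of 3 fell in ileum of D3M rats. *Decr1* (ENSRNOG00000008236, rn6 chr5:29573898-29601748, minus strand) encodes the mitochondrial 2,4-dienoyl-CoA reductase, which removes a double bond of polyunsaturated chains. It had a lowest, median and highest value of 86.46, 104.7 and 112.6 CPM in ND, 63.47, 71.06 and 94.89 CPM in D1M and 47.03, 56.44 and 69.16 CPM in D3M rats. Every D3M rat was below every ND rat, and the D1M rats overlapped both. Relative to ND, D3M rats had a log2 fold change of −0.89 ± 0.12 (SE, n = 6 each; edgeR, FDR = 0.000881), a decrease of 46%. *Eci1* (ENSRNOG00000008843, rn6 chr10:13797562-13810913, plus strand) encodes the mitochondrial enoyl-CoA isomerase that shifts double bonds into the position the pathway needs. Its lowest, median and highest values were 50.29, 54.86 and 62.96 CPM in ND, 41.8, 42.94 and 63.43 CPM in D1M and 18.19, 29.44 and 42.32 CPM in D3M rats. The D3M values were spread more widely than the ND values, with P762 lowest and K3977 highest, and did not overlap them. *Eci1* fell by 0.93 ± 0.17 on the log2 scale relative to ND (edgeR, FDR = 0.00406). *Eci2*, the isomerase found in both peroxisomes and mitochondria, had a log2 fold change of −0.21 ± 0.10 and did not pass (edgeR, FDR = 0.177).

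Ketone body steps were represented by 3 members, of which 1 fell. *Acat1* (ENSRNOG00000007862, rn6 chr8:58166990-58195884, minus strand) encodes the mitochondrial acetoacetyl-CoA thiolase, which acts in the formation and the use of ketone bodies and in isoleucine breakdown. Its lowest, median and highest values were 164, 169.7 and 183.6 CPM in ND, 124.4, 150.4 and 161.4 CPM in D1M and 87.4, 110.2 and 126.3 CPM in D3M rats. Both diabetic groups lay wholly below ND, and the D3M and D1M rats overlapped only between 124.4 and 126.3 CPM. *Acat1* fell by 0.71 ± 0.097 on the log2 scale in D3M relative to ND rats (edgeR, FDR = 0.000965). *Bdh1*, the mitochondrial dehydrogenase between acetoacetate and β-hydroxybutyrate, differed by −0.21 ± 0.082 (edgeR, FDR = 0.1). *Oxct1*, the transferase that commits ketone bodies to oxidation, differed by 0.13 ± 0.14 (edgeR, FDR = 0.574).

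Of the peroxisomal oxidation genes, *Hsd17b4* (ENSRNOG00000015840, rn6 chr18:44810388-44897640, plus strand), the D-bifunctional protein for branched and very long chains, was 85.7, 97.46 and 114.2 CPM at the lowest, median and highest in ND, 78.59, 86.54 and 126 CPM in D1M and 67.73, 71.69 and 74.53 CPM in D3M rats. The 6 D3M rats formed a narrow band below every rat of the other groups. Relative to ND, the D3M level had a log2 fold change of −0.55 ± 0.11 (edgeR, FDR = 0.00668). *Ehhadh*, the L-bifunctional protein and a known PPARα target, had a log2 fold change of 0.19 ± 0.15 and did not pass (edgeR, FDR = 0.413).

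Of the 4 carnitine shuttle genes, 1 fell. *Cpt1a* (ENSRNOG00000014254, rn6 chr1:218569510-218629678, plus strand) encodes the outer membrane carnitine palmitoyltransferase, the rate-controlling step of entry into mitochondria. The lowest, median and highest values were 104.6, 143.8 and 184.1 CPM in ND, 107.1, 133.4 and 146 CPM in D1M and 88.52, 118 and 161.8 CPM in D3M rats. The 3 groups overlapped widely, and the highest ND value belonged to K4040, the ileum library with colonic markers. The log2 fold change in the model with flow cell was −0.49 ± 0.13 (edgeR, FDR = 0.0241). This call was lost without K4040 (−0.37, FDR = 0.0856), without P762 (−0.40, FDR = 0.0913), without K3986 (−0.50, FDR = 0.0563), without P780 (−0.48, FDR = 0.0572) and without the flow cell term (−0.26, FDR = 0.161), as well as without flow cell 2 (FDR = 0.0659) and with D3M and ND as the only groups in the fit (FDR = 0.127). *Crat*, which moves short acyl groups onto carnitine, had a log2 fold change of 0.29 ± 0.11 (edgeR, FDR = 0.1). *Cpt2*, the inner membrane transferase, and *Slc25a20*, the carnitine-acylcarnitine translocase, had log2 fold changes of 0.09 and −0.03.

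Of the 8 genes for the core steps of mitochondrial β-oxidation 1 passed, a share equal to the 12.5% of all genes. None of the 4 acyl-CoA dehydrogenases (*Acadvl*, *Acadl*, *Acadm* and *Acads*, for very long, long, medium and short chains) passed the test in ileum of D3M relative to ND rats, with log2 fold changes between −0.09 and 0.24. *Hadha* and *Hadhb*, the subunits of the trifunctional protein for long chains, had log2 fold changes of −0.03 and −0.15. *Hadh*, the short-chain 3-hydroxyacyl-CoA dehydrogenase, had a log2 fold change of −0.43 ± 0.15 and did not pass (edgeR, FDR = 0.074). *Acaa2* (ENSRNOG00000013766, rn6 chr18:70733872-70762395, plus strand), the mitochondrial 3-ketoacyl-CoA thiolase, was the member of this role that fell. Its lowest, median and highest values were 316.2, 359.7 and 383.9 CPM in ND, 258.4, 294.3 and 351.8 CPM in D1M and 217.3, 267.2 and 275.7 CPM in D3M rats. No D3M rat reached the lowest ND rat, and D1M rats lay across the gap. *Acaa2* fell by 0.45 ± 0.10 on the log2 scale relative to ND (edgeR, FDR = 0.0103), and did not pass with D3M and ND as the only groups in the fit (−0.48, FDR = 0.0502).

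Electrons from the acyl-CoA dehydrogenases pass to ubiquinone through *Etfa*, *Etfb* and *Etfdh*, and only the last of these fell. *Etfdh* (ENSRNOG00000009538, rn6 chr2:178367549-178389608, minus strand), the electron transfer flavoprotein dehydrogenase, was 79.76, 83.33 and 97.16 CPM at the lowest, median and highest in ND, 65.29, 85.24 and 114.8 CPM in D1M and 62.31, 67.1 and 77.05 CPM in D3M rats. The D3M and ND values did not overlap, and the D1M rats spanned both. *Etfdh* fell by 0.48 ± 0.11 on the log2 scale relative to ND (edgeR, FDR = 0.011), and did not pass without flow cell 2 (−0.39, FDR = 0.0858). *Etfa* and *Etfb*, the subunits of the flavoprotein, had log2 fold changes of 0.00 and −0.03.

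*Acot12* (ENSRNOG00000061414, rn6 chr2:20857202-20901659, plus strand), a cytosolic thioesterase that releases acetate from acetyl-CoA, was the 1 member that rose in ileum. Its lowest, median and highest values were 21.67, 29.86 and 37.06 CPM in ND, 28.68, 33.77 and 47.18 CPM in D1M and 48.77, 87.76 and 114.4 CPM in D3M rats. All D3M rats were above all rats of the other groups, although K3959, the lowest D3M rat, was close to K3990, the highest D1M rat. The log2 fold change of D3M relative to ND was 1.59 ± 0.22 (edgeR, FDR = 0.000965), a 3.01-fold higher level. *Acot2*, a mitochondrial thioesterase, had a log2 fold change of −0.37 ± 0.13 and did not pass (edgeR, FDR = 0.0725). *Acot1*, its cytosolic neighbour on chromosome 6 with a very similar sequence, reached at most 22 counts in an ND ileum library and 24 in a D1M one, and reads may be split between them.

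The 4 regulators and fasting-responsive genes did not pass the test between D3M and ND rats, though *Angptl4* did in some other settings. *Angptl4*, a secreted inhibitor of lipoprotein lipase that PPARs induce, was 11.5, 15.66 and 21.85 CPM at the lowest, median and highest in ND, 9.946, 17.7 and 21.61 CPM in D1M and 15.38, 24.24 and 33.5 CPM in D3M rats. Its log2 fold change of D3M relative to ND was 0.68 ± 0.25 (edgeR, FDR = 0.0869), and the groups overlapped. *Angptl4* passed in DESeq2 (0.71, FDR = 0.0433) and with the smooth muscle score as a covariate (0.76, FDR = 0.0393). It also passed without the flow cell term (0.61, FDR = 0.0429) and without K4048 (1.04, FDR = 0.018). These 4 settings called 2194 to 3007 of all genes, against 1632. *Ppara* itself had a log2 fold change of 0.24 ± 0.24 (edgeR, FDR = 0.525). *Pdk4*, the kinase that shuts off pyruvate oxidation, and *Ppargc1a*, a coactivator of mitochondrial genes, were at 10.22 CPM or less in every ileum library, with log2 fold changes of 0.55 ± 0.61 for *Pdk4* and 0.09 ± 0.49 for *Ppargc1a*.

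**Figure D2:**
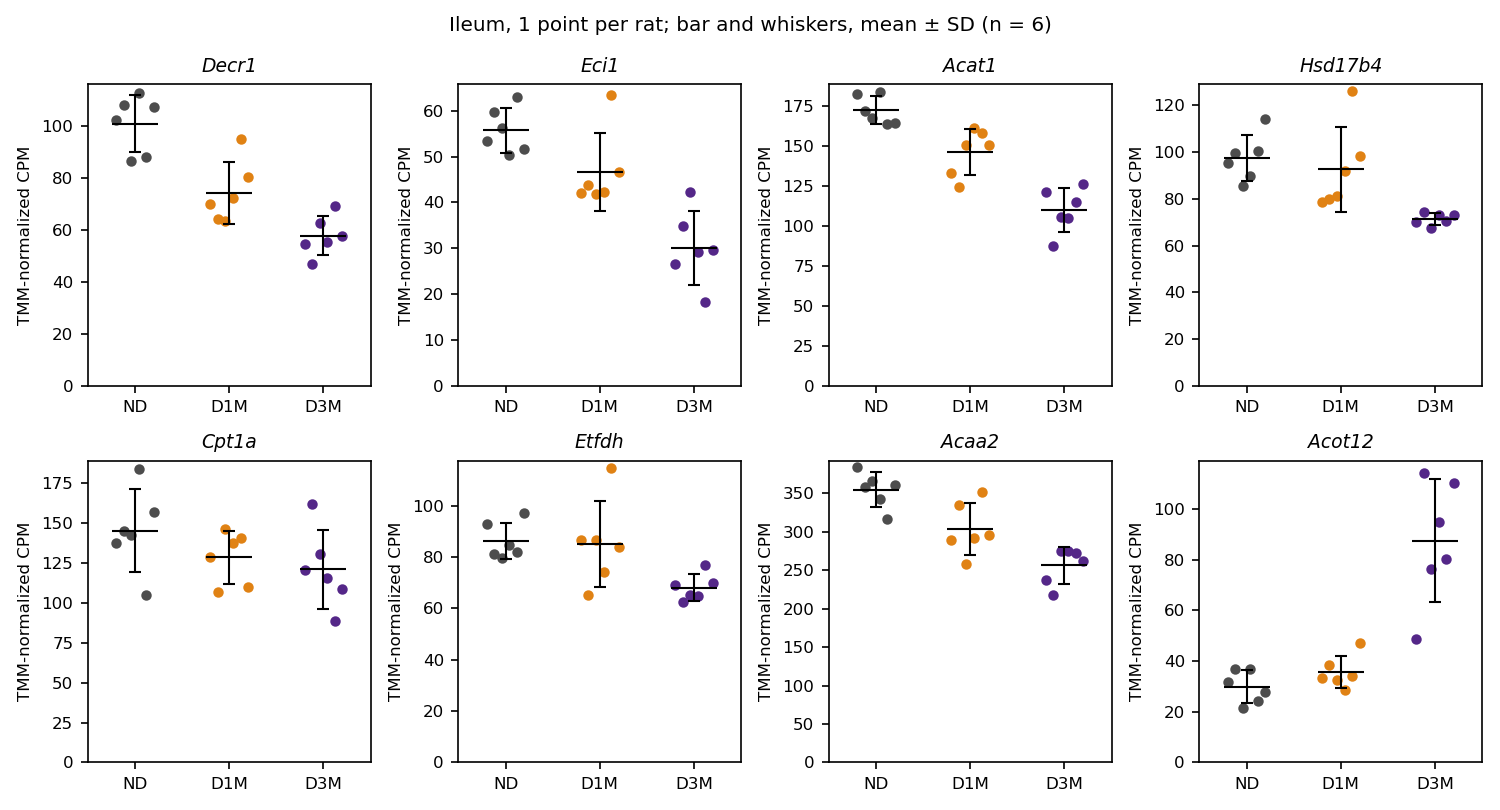
TMM-normalized CPM of the 8 genes at FDR < 0.05 between D3M and ND rats in ileum, by group (ND, D1M, D3M), with 1 point per rat and the mean ± SD of 6 rats. The D3M points of *Acot12* (48.77 to 114.4 CPM) stand above all others, and those of *Hsd17b4* form a band between 67.73 and 74.53 CPM.

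When D1M rats were set against ND rats, 0 of the 30 members passed in edgeR, where 0.0154% of all genes did. An unadjusted p below 0.05 was reached by 4 members, all lower (*Cpt1a*, *Acaa2*, *Decr1* and *Acat1*), against 8.34% of all genes. *Acat1* was the 1 member with every D1M library below every ND library, against 0.307% of all genes. *Decr1* had the smallest p, with a log2 fold change of −0.50 ± 0.11 (edgeR, FDR = 0.339), and DESeq2 called it (−0.49, FDR = 0.0155) and no other member. Over all 13026 genes DESeq2 called 44, against 2 in edgeR. Voom with quality weights and the edgeR 4 form of the quasi-likelihood test called 0 members, and 1 and 2 of all genes.

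In ileum of D3M relative to D1M rats, which were close in age, 3 members fell and 1 rose (edgeR, FDR < 0.05), against 2.22% of all genes called, 0.292% lower and 1.93% higher. At an unadjusted p below 0.05 there were 11 members, against 19.1% of all genes. All 4 were among the 8 called between D3M and ND rats. *Acot12* rose by 1.31 ± 0.19 on the log2 scale (edgeR, FDR = 0.00708), and every D3M rat exceeded every D1M rat. *Eci1* fell by 0.65 ± 0.15 (FDR = 0.0342), *Acat1* by 0.43 ± 0.084 (FDR = 0.0244) and *Hsd17b4* by 0.40 ± 0.098 (FDR = 0.0434) in the same test. Of these 3, *Hsd17b4* was the 1 with every D3M library below every D1M library, which held for 0.514% of all genes, and for *Acot12* the reverse held, as for 1.33% of all genes. The D1M rat K3989 had the highest level of its group for *Eci1*, *Hsd17b4*, *Etfdh*, *Decr1* and *Acaa2*, with 63.43 CPM of *Eci1* against 41.8 to 46.53 CPM in the other D1M rats.

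These lower calls between D3M and D1M were lost in some fits with 1 library left out. *Acot12* passed with any 1 of the 18 ileum libraries left out (FDR = 0.0348 or less). The count of 4 fell to 1 without K3988, K3989 or K3961 and to 2 without K3978, K3990, K3980 or P780. Over all genes the 289 calls fell as well, to 10 without K3988, 6 without K3989 and 22 without K3961. In these 3 fits 10, 9 and 12 members had an unadjusted p below 0.05 (edgeR), against 11 with all libraries. *Acat1* did not pass without K3988 (FDR = 0.0683), K3989 (FDR = 0.0744) or K3961 (FDR = 0.0562). *Eci1* did not pass without these 3, K3978, K3990, K3980, P762 or P780, with FDR up to 0.11. *Hsd17b4* did not pass without any of these 8 libraries, K4037, K4038 or K3977, also with FDR up to 0.11, and its log2 fold change was −0.29 without K3989. With the epithelial score as a covariate all 3 lower calls were lost (*Eci1* FDR = 0.113, *Hsd17b4* FDR = 0.137, *Acat1* FDR = 0.0523), and *Acot12* and *Eci2* (−0.38, FDR = 0.0312) passed. In that fit 36 of all genes passed, against 289 without the score. An unadjusted p below 0.05 (edgeR) was reached by 13 members with the score and 11 without it. Just outside the threshold without the score lay *Etfdh* (−0.36 ± 0.094, FDR = 0.0519), *Decr1* (−0.39 ± 0.10, FDR = 0.0585) and *Bdh1* (−0.23 ± 0.07, FDR = 0.0943).

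Within flow cells the called members kept their direction, which is no separate test because the same libraries gave the calls. No D3M ileum library was on flow cell 2, so differences of mean log2 CPM were taken within flow cell 1 (4 D3M and 1 ND rat) and flow cell 3 (2 and 2). All 7 lower members were lower in D3M than ND rats in both, by −0.966 to −0.259 in flow cell 1 and −1.14 to −0.271 in flow cell 3, and *Acot12* was higher by 1.5 and 1.45. Between D3M and D1M rats (4 and 3 in flow cell 1, 2 and 2 in flow cell 3), *Acot12* was higher by 1.32 and 1.24 and the 3 lower members kept their direction.

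Marker genes of other compartments moved with the groups in ileum. The sum of 9 absorptive enterocyte markers was 20130 to 24840 CPM in D3M rats, against 9419 to 15300 CPM in ND rats and 12620 to 17730 CPM in D1M rats, with no overlap in either pair. The sum of 9 general epithelial markers was 23320 to 30480 CPM in D3M and 16500 to 22650 CPM in ND rats. B cell and follicle markers ran from 27.96 to 379.9 CPM in D3M and from 37.13 to 1040 CPM in ND rats, and proliferation markers from 189.7 to 338.7 CPM in D3M and from 263.1 to 486.3 CPM in ND rats, with overlap in both. Adipocyte markers ran from 66.01 to 110.5 CPM in D3M and from 50.82 to 263.3 CPM in ND rats, also with overlap. The D3M group, in which the 7 members were lower than in ND, had the higher epithelial marker sum. With the epithelial score as a covariate, an alternative chosen after seeing the data, 4 members passed between D3M and ND rats, and *Decr1*, *Acat1* and *Acot12* were the 3 of the original 8 among them. The other 5 kept their direction, with log2 fold changes of −0.79 for *Eci1* (FDR = 0.0597), −0.60 for *Cpt1a* (FDR = 0.0549), −0.47 for *Etfdh* (FDR = 0.0807), −0.47 for *Acaa2* (FDR = 0.0603) and −0.45 for *Hsd17b4* (FDR = 0.0875). Of the settings run for D3M relative to ND, *Eci2* passed only in that fit (−0.44, FDR = 0.0224). With the score 285 of all genes passed, against 1632 without it. An unadjusted p below 0.05 (edgeR) was reached by 16 members with the score and 13 without it. Because the epithelial marker sum was higher in every D3M than in every ND library, this fit cannot fully part the score from the group. The part of tissue composition in the results was not tested.

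**Figure D3:**
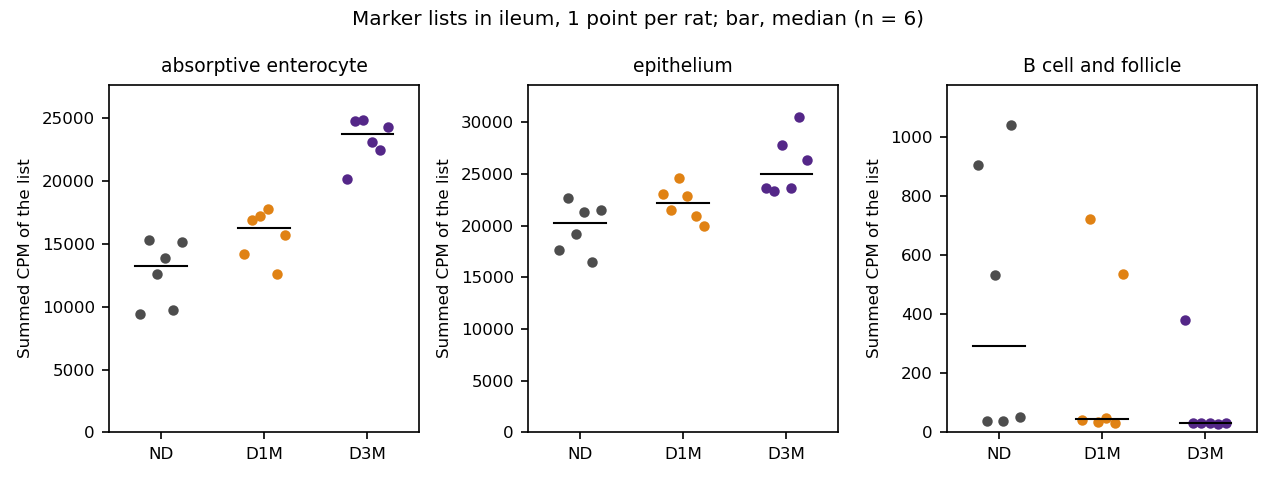
Summed CPM of marker lists for absorptive enterocytes, epithelium, and B cells and follicles in ileum, by group (ND, D1M, D3M), with 1 point per rat and a bar at the median of 6. The D3M enterocyte sums (20130 to 24840 CPM) lie above all ND and D1M sums, and the B cell sums fall into high and low libraries within each group.

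A wider list of 82 further names of the pathway, of which 78 had a row and 73 were tested in ileum, showed 10 higher and 6 lower transcripts in D3M relative to ND rats (edgeR, FDR < 0.05). Over all genes 8.31% were higher and 4.22% lower. *Acsf2*, an acyl-CoA synthetase of mitochondria, rose by 1.00 ± 0.15 on the log2 scale (edgeR, FDR = 0.00188). *Acad11*, a dehydrogenase for hydroxylated and long chains, rose by 0.87 ± 0.16, and *Fabp1*, the cytosolic fatty acid binding protein, by 0.99 ± 0.19. *Acsl5*, the long-chain acyl-CoA synthetase of enterocytes, rose by 0.78 ± 0.15, and *Acot5*, a peroxisomal thioesterase, by 1.93 ± 0.42. *Acot5* is similar in sequence to *Acot1* and *Acot2*, had at most 57 counts in an ND library, and its reads may be shared with theirs. *Hsd17b10*, a mitochondrial dehydrogenase of isoleucine and fatty acid breakdown, fell by 0.37 ± 0.084. All of these had FDR of 0.0114 or less. The wider list's count of 16 was 9 without K4028 or K4040, 7 without K3986 or P780, 5 without flow cell 2, 3 with the epithelial score as a covariate, and 1 (*Acsf2*) with D3M and ND as the only groups in the fit, and its median log2 fold change was −0.08, as for all genes. Over all genes the 1632 calls fell to between 675 and 1090 without K4028, K4040, K3986 or P780. They fell to 561 without flow cell 2, 285 with the score and 185 with only these groups.

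Between D3M and D1M rats only *Acsf2* (0.68 ± 0.13, edgeR, FDR = 0.0244) and *Acsl5* (0.63 ± 0.13, FDR = 0.0268) of the 73 tested genes of the wider list passed, both higher, against 2.22% of all genes. Both were lost with the epithelial score as a covariate (FDR = 0.0632 and 0.0756). Both were also lost without K3978, K3988, K3989, K3990 or K3961, and *Acsl5* also without P780, with FDR of 0.0542 to 0.0806. Over all genes the 289 calls fell to between 6 and 74 without each of these libraries, and to 36 with the epithelial score. In colon 0 of 71 genes of the wider list passed in any group comparison in edgeR, DESeq2 or voom. At an unadjusted p below 0.05 there were 12 for D3M relative to ND (10% of all genes), 1 for D1M relative to ND (4.66%) and 4 for D3M relative to D1M (5.28%). For D3M relative to ND 4 passed with these as the only groups in the fit, where 315 of 12619 genes did. For D3M relative to D1M 1 passed without the colon library of K3990, where 2 of 13010 genes did.

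In colon, 0 of the 30 members passed in edgeR in any of the 3 group comparisons. Of 12906 genes 0.0155% passed between D3M and ND rats, and 0% in each of the other comparisons. At an unadjusted p below 0.05 there were 2 members between D3M and ND rats (10% of all genes), 1 between D1M and ND rats (4.66%) and 1 between D3M and D1M rats (5.28%). DESeq2 and voom also called 0 members in each. *Cpt2* had the smallest p between D3M and ND rats. Its lowest, median and highest values were 66.6, 73.16 and 82.77 CPM in ND, 61.34, 85.38 and 95.23 CPM in D1M and 83.49, 86.92 and 94.95 CPM in D3M rats. All 6 D3M rats were above all 6 ND rats, which held for 0.465% of all genes, but the log2 fold change of 0.26 ± 0.099 did not pass (edgeR, FDR = 0.389). It passed with D3M and ND as the only groups in the fit (0.32, FDR = 0.0284), where 315 of 12619 genes passed.

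*Angptl4* was 3.165, 5.762 and 12.96 CPM at the lowest, median and highest in colon of ND, 1.788, 4.902 and 10.61 CPM of D1M and 2.15, 3.254 and 4.127 CPM of D3M rats, and its log2 fold change of D3M relative to ND was −1.08 ± 0.48 (edgeR, FDR = 0.465). Of the 6 D3M rats, K3961, P780 and K3980 were below the lowest ND rat and the others were within the ND range. *Oxct1* was 43.01, 50.68 and 81.4 CPM in colon of ND, 37.43, 49.64 and 66.49 CPM of D1M and 32.31, 45.18 and 49.44 CPM of D3M rats, with a log2 fold change of −0.33 ± 0.18 (edgeR, FDR = 0.559). Its highest ND value was that of K4028, and without that library the log2 fold change was −0.18. Colonic *Acat1* was 271.6, 325 and 358.3 CPM in ND, 280.2, 320.3 and 340.4 CPM in D1M and 250.1, 271.6 and 329.7 CPM in D3M rats, with a log2 fold change of −0.14 ± 0.083 (edgeR, FDR = 0.589). *Acot12* was at 1.516 to 20.79 CPM in colon of ND rats, and K4028 alone was above 3.798 CPM. Its colonic log2 fold change of D3M relative to ND was −0.11 ± 0.58 with that library and 0.84 without it, and neither passed (edgeR, FDR = 0.962 and 0.589).

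The change of D3M relative to ND rats was lower in ileum than in colon for 3 members (edgeR interaction test over both tissues, FDR < 0.05), against 1.56% of 13697 genes called, 0.292% lower. At an unadjusted p below 0.05 there were 11 members, against 16.8% of all genes. The difference of the log2 fold changes, ileum minus colon, was −0.83 ± 0.18 for *Decr1* (FDR = 0.0163), −0.54 ± 0.125 for *Hsd17b4* (FDR = 0.029) and −0.52 ± 0.13 for *Acat1* (FDR = 0.0388). In colon the log2 fold changes of D3M relative to ND were −0.00, 0.04 and −0.14 for these genes. Since each rat gave both tissues, the fit was repeated with the rat as a replicate block, and then 0 of the 30 passed (*Decr1* −0.80, FDR = 0.178; *Hsd17b4* −0.51, FDR = 0.248; *Acat1* −0.48, FDR = 0.324), as did 0 of all genes. Without the colon library of K4028 and the ileum library of K4040, 0 of the 30 passed, while 37 of 13801 genes did. The differences were then −0.77, −0.57 and −0.48 for *Decr1*, *Hsd17b4* and *Acat1*, with edgeR FDR of 0.0826, 0.0692 and 0.182. For *Acot12* the difference was 1.80 ± 0.63 (FDR = 0.133) and 0.87 without these 2 libraries. For D3M relative to D1M rats 0 of the 30 differed between the tissues in the edgeR interaction test, where 0% of all genes did, with 4 at an unadjusted p below 0.05 (8.31% of all genes).

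**Figure D4:**
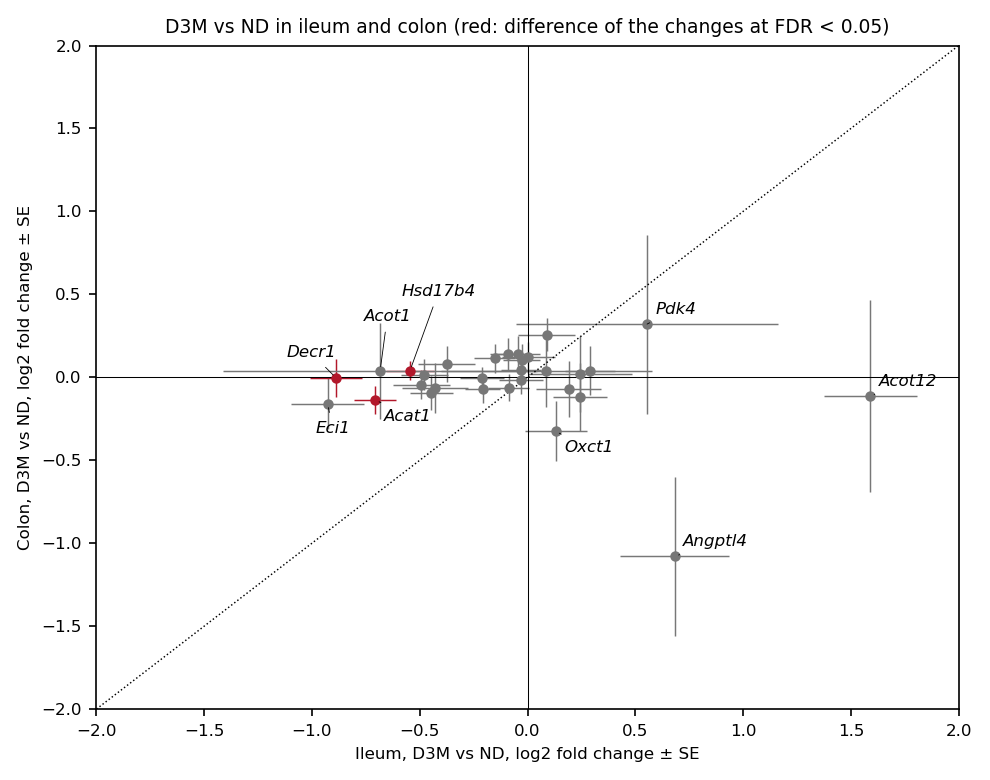
Log2 fold changes with SE of D3M relative to ND rats in ileum (x axis) and in colon (y axis) for the 30 genes, with 6 rats per group and tissue, and the dotted line of equal change. The 3 red genes, *Decr1*, *Hsd17b4* and *Acat1*, differed between the tissues at FDR < 0.05 without the replicate block and lie near 0 in colon.

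Between the tissues, 11 of the 30 members were higher and 18 lower in ileum than in colon over all rats (edgeR, FDR < 0.05), with *Etfa* the 1 that did not pass. Of all genes 73.2% passed, 34.5% higher and 38.7% lower in ileum. All 18 ileum libraries were above all 18 colon libraries for 3 members (*Acot12*, *Oxct1* and *Acadm*) and below them for 5 (*Ppargc1a*, *Decr1*, *Acads*, *Acat1* and *Acaa2*), against 6.87% and 7.68% of all genes. On a normalization over both tissues, *Acot12* had a lowest, median and highest value of 22.63, 39.09 and 123.7 CPM in ileum and 1.452, 2.97 and 19.56 CPM in colon. The colon maximum was K4028, and without that library the highest colon value was 6.438 CPM. The log2 fold change of ileum relative to colon was 3.56 ± 0.27 (edgeR, FDR = 2.24e-13), and 3.95 without the 2 mixed libraries. The whole-tissue pieces also differed in markers of other cells, with libraries normalized within each tissue. Adipocyte sums were 50.82 to 263.3 CPM in ileum and 616.9 to 1484 CPM in colon. Smooth muscle sums were 1557 to 8247 CPM in ileum and 6054 to 19740 CPM in colon. The part of tissue composition in the differences between tissues was not tested.

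Of the 3 ketone body members 1 was higher in ileum, *Oxct1*, and *Acat1* and *Bdh1* (−0.42 ± 0.046) were lower. *Oxct1* was 114.6, 151.3 and 210.7 CPM at the lowest, median and highest in ileum and 30.21, 43.4 and 76.6 CPM in colon, a log2 fold change of 1.69 ± 0.098 (edgeR, FDR = 1.34e-16). *Acadm* was 515, 657.7 and 991.1 CPM in ileum and 174.7, 245 and 403.9 CPM in colon (log2 fold change 1.36 ± 0.099). *Angptl4* and *Pdk4* were also higher in ileum, with log2 fold changes of 2.01 ± 0.24 and 2.00 ± 0.33, but with overlapping libraries. Both peroxisomal genes were higher in ileum, *Ehhadh* by 0.70 ± 0.09 and *Hsd17b4* by 0.13 ± 0.06, the second of which did not pass with the rat as a replicate block (0.15, FDR = 0.052).

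Transcripts for short-chain oxidation, both thiolases and the dienoyl-CoA reductase were lower in ileum. *Acads* was 124.2, 140 and 160.8 CPM in ileum and 230.9, 339.5 and 383.9 CPM in colon (log2 fold change −1.21 ± 0.049; edgeR, FDR = 2.79e-20). *Decr1* was 50.5, 76.33 and 120.3 CPM in ileum and 133, 188.2 and 232.9 CPM in colon, and *Acat1* was 93.84, 159.3 and 196.2 CPM in ileum and 237.4, 293.1 and 335.9 CPM in colon. Their log2 fold changes were −1.22 ± 0.085 and −0.93 ± 0.058, and that of *Acaa2* was −0.83 ± 0.057. *Cpt1a* was lower by −0.82 ± 0.065, and its tissues separated once the 2 mixed libraries were left out. *Ppargc1a* had the most negative value, −2.13 ± 0.19, with 0.5262 to 3.434 CPM in ileum and 4.527 to 8.86 CPM in colon. All 4 genes of the later mitochondrial steps were lower in ileum, against 1 of the 4 dehydrogenases that was higher. *Acadvl*, lower by −0.13 ± 0.048, did not pass with RLE size factors (−0.09, FDR = 0.0801).

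**Figure D5:**
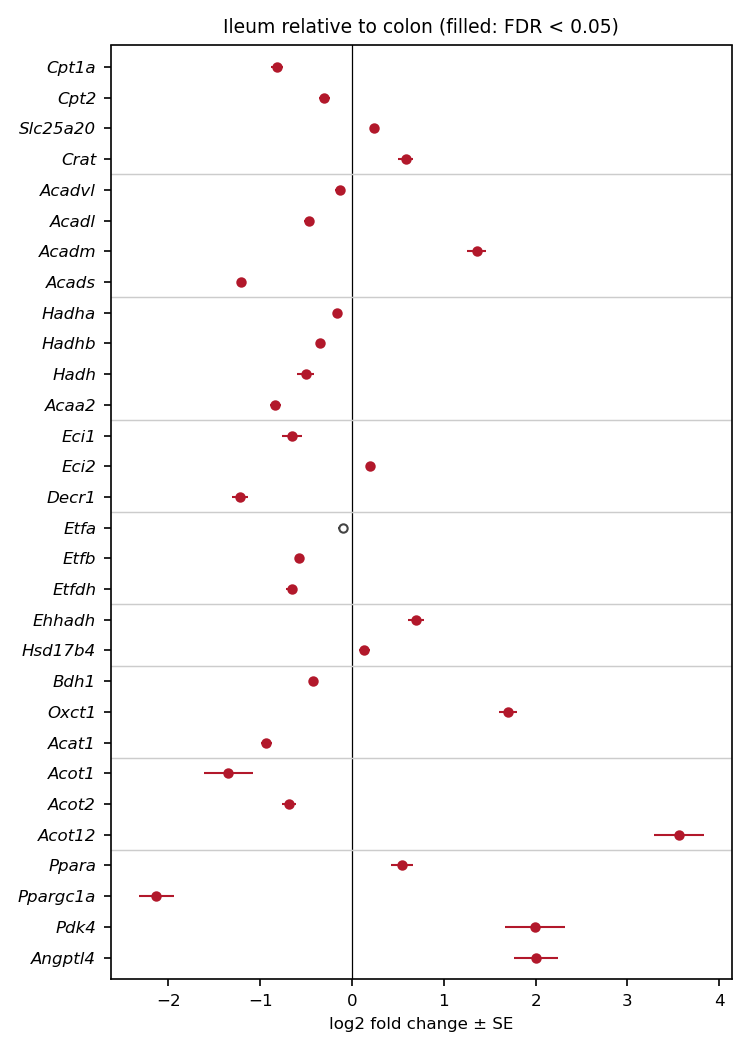
Log2 fold change with SE of ileum relative to colon for the 30 genes, over 18 libraries of each tissue, in the order of the roles; filled red points passed FDR < 0.05 (29 of 30). *Acot12* lies farthest to the right at 3.56 and *Ppargc1a* farthest to the left at −2.13.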

How the data were processed

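RNA from distal ileum and proximal colon of 18 rats gave 36 directional mRNA-seq libraries, which the authors aligned to rn6 with STAR and quantified per gene in SeqMonk (versions and the strand setting of the counting are not given in the sources used here). The deposited table holds raw counts per gene, which were used as deposited, beside 36 columns of standard deviations that were not used. A deposited table of log2 values was not used. Total counts per library were 12279059 to 21510043 in ileum and 10024041 to 18299050 in colon. Groups came from the sample titles. In R 4.3.3, edgeR 4.0.16 was applied to all genes of a tissue with filterByExpr, TMM factors, the legacy robust quasi-likelihood fit, flow cell as a covariate and Benjamini-Hochberg adjustment at 0.05, with 3 groups of 6 rats sharing 1 estimate of the spread. The SE is the size of the log2 fold change divided by the square root of F. Tissue and interaction contrasts were fitted over all 36 libraries. Within flow cells, differences are of mean log2(CPM + 0.5).

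Full values are given for members at FDR < 0.05 and for those with the 4 smallest p in ileum D3M vs ND, ileum D3M vs D1M and colon D3M vs ND, and of the wider pathway list for those with the 6 smallest p. The members and all lists were chosen with earlier results of these data known. Alternatives were RLE size factors, no filter or 1 CPM in 6 libraries, no flow cell term, no flow cell 2, 2 groups only, DESeq2 1.42.0, limma 3.58.1 voom, the edgeR 4 quasi-likelihood form, marker scores as covariates, leaving out the 2 mixed libraries or each library, and the rat as a replicate block. Scripts were tested on simulated data. The 2 tissues of a rat are paired by design, and their deviations from the group means correlated at −0.564 to 0.767 over 18 rats (median −0.0221, 7 above 0.1). Promoter windows were matched by symbol in RefSeq (GRCr8). Figures were drawn with Python 3.11 and matplotlib 3.10.9.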

Additional observations from a re-analysis of the deposited data

Results flagged for a closer look

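Of 180 sets of 6 libraries (30 genes, 3 groups and both tissues), 8 had a highest library set apart from the other 5 by Dixon's ratio, where chance gives about 1 in 20. In colon, K4028 (ND, the library with ileal markers) stood apart for 3 genes: *Acot12* was 20.79 CPM (other ND rats 1.516 to 3.798), *Oxct1* 81.4 CPM (43.01 to 55.94) and *Acadm* 429.3 CPM (207.4 to 277.4), and these were the 3 members whose ileum libraries were all above the colon libraries. In ileum, *Eci1* was 63.43 CPM in D1M rat K3989 (other D1M rats 41.8 to 46.53), *Bdh1* 70.2 CPM in D3M rat P762 (54.39 to 59.75 in the others) and *Hadh* 99.04 CPM in ND rat K4048 (56.91 to 71.39). Without P762, *Bdh1* passed between D3M and ND rats (−0.28, edgeR, FDR = 0.0235) and between D3M and D1M rats (−0.28, FDR = 0.0315). In colon, *Acot1* was 4.701 CPM in D1M rat K3978 (1.23 to 2.338 in the others) and *Ppara* 2.669 CPM in ND rat K4047 (1.749 to 2.08).

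The change of D3M relative to ND rats differed between ileum and colon in the interaction test for *Decr1* (−0.83), *Hsd17b4* (−0.54) and *Acat1* (−0.52), and for none of them with the rat as a replicate block.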

How the results depend on the processing

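In ileum, *Decr1*, *Acat1* and *Acot12* passed between D3M and ND rats in 13 of 13 other settings and with any 1 of 18 libraries left out, and no call reversed. The count for D3M vs ND was 6 without flow cell 2 (*Cpt1a* and *Etfdh* lost), 6 with only these groups in the fit (*Cpt1a* and *Acaa2* lost), 4 with the epithelial score (3 of them among the 8), and 7 to 10 with 1 library left out. Over all genes the 1632 calls fell to 561, 185 and 285 in the first 3 of these. Without the flow cell term *Crat*, *Acadm*, *Acot2* and *Angptl4* were added and *Cpt1a* was lost, with 3007 of all genes called. Voom added *Crat*, *Hadh* and *Bdh1*, with 2053 called, and DESeq2 added *Angptl4*, with 2251 called. For D1M vs ND the member count was 1 in DESeq2, where 44 of all genes passed, and 0 with 1 library left out, where 1 to 3 did. For D3M vs D1M it was 8 in voom, 2 without flow cell 2, 2 with only these groups in the fit, 2 with the epithelial score (1 of them among the 4), and 1 to 5 with 1 library left out. Over all genes 787, 130, 326 and 36 were called in the first 4 of these settings, against 289. For colon D3M vs ND the member count was 1 with only these groups in the fit, where 315 of 12619 genes passed. For the ileum minus colon difference of D3M vs ND the count of 3 became 6 without the flow cell term, 0 without the 2 mixed libraries, and 0 with the rat as a replicate block. Over all genes the 214 calls became 761, 37 and 0 in these fits. Without a filter *Acat1* did not pass for this difference (edgeR, FDR = 0.0547), and 133 of all genes were called. The cause was not tested.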
